A study of Mus musculus with 54 samples.

Results

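De novo lipogenesis, the making of fatty acids from acetyl-CoA, was followed through 10 genes in the liver of high-fat-fed mice given di-isononyl phthalate (DINP), a plasticizer of consumer products. The genes were chosen by name, as central enzymes and regulators of the pathway and by no threshold on a measured value, though with earlier results of these data known: Acly, Me1, Acaca, Acacb, Fasn, Elovl6, Scd1, Thrsp, Pnpla3 and Srebf1. All 10 were among the 20162 rows of the table, and 9 of them were among the 11431 rows that were tested.

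Total liver RNA had been sequenced from the 3′ ends of transcripts in 54 male C57Bl/6J mice. All mice, controls included, were housed singly and fed a high-fat diet (HFD) from the age of 8 weeks. For 20 weeks, 14 control mice received placebo gelatin pellets without DINP, and the other groups took DINP by mouth in such pellets. These were 13 mice at 1.5, 13 at 15 and 14 at 150 mg per kg of body weight and day, called 1.5, 15 and 150 mg below. The model is 1 strain, 1 sex and 1 diet, and the liver piece came from the medial lobe. The feeding state and the hour of the day at collection, both known to move lipogenic genes, were not given in the sources used here.

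In this pathway, citrate exported from mitochondria is cleaved by ATP-citrate lyase (Acly) to cytosolic acetyl-CoA, and malic enzyme (Me1) supplies NADPH. Acetyl-CoA carboxylases make malonyl-CoA, Acaca in the cytosol for synthesis and Acacb at the mitochondrial surface, where malonyl-CoA holds back fatty acid import. Fatty acid synthase (Fasn) builds palmitate, Elovl6 lengthens it to stearate and Scd1 desaturates both. Insulin acts on the pathway through Srebf1, the gene of the transcription factor SREBP-1, and carbohydrate acts through ChREBP.

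The stretch before the transcription start of 4 genes is shown because the 5 highest correlations across mice were among these 4, as described later. The sequences are from RefSeq on GRCm38.p6, 250 bases before the start, 5′ to 3′ on the strand of the gene, and capitals mark CCAAT on either strand (ATTGG on the opposite one).
Fasn, chr11:120824548-120824797, minus strand: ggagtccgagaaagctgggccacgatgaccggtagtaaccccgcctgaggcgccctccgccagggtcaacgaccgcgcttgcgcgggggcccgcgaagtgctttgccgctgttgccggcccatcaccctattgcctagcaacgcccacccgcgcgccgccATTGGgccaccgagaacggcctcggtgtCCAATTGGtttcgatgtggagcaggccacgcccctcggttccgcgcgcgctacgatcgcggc
Acly, chr11:100528001-100528250, minus strand: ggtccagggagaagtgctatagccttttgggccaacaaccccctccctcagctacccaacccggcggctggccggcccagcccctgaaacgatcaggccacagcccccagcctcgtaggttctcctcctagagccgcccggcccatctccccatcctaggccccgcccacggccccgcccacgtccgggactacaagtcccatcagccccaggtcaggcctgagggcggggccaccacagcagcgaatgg
Elovl6, chr3:129532136-129532385, plus strand: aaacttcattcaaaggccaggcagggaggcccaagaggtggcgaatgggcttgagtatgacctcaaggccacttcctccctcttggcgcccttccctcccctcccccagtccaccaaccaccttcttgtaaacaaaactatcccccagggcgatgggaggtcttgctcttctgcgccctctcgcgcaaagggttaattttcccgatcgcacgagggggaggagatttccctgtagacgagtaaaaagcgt
Thrsp, chr7:97417551-97417800, minus strand: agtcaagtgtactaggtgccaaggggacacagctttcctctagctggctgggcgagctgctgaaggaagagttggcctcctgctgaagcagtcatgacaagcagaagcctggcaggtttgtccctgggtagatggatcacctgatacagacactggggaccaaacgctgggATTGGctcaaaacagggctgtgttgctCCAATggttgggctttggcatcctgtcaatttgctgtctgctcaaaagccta

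The CCAAT box is the classical site of the factor NF-Y, which works next to SREBP at lipogenic promoters. Windows were at hand for 9 of the 10 genes, with 12 starts in all. CCAAT stood in 7 of the 12 windows, which belonged to 6 genes, and in 33.8% of the 32851 windows of the same length from genes of nearly all chromosomes. Fasn held it at 3 positions, 90, 62 and 59 bases before the start, the last pair overlapping, and Thrsp held it at 79 and 52 bases. The windows of Acly and Elovl6 had none. The RefSeq starts and the gene positions given below come from different annotations. By those positions, part of the Thrsp window with both of its CCAAT sites lay inside the gene, as did the end of the Elovl6 window. The windows of Acaca and Acacb lay wholly inside their genes. So did the Srebf1 windows at 60220628 to 60220877 and 60210472 to 60210721, and the Me1 window at 86687278 to 86687527. The only CCAAT of Me1 was in that internal window, and the end of the other Me1 window also lay inside the gene. The E-box CACGTG, read by ChREBP and USF factors, was in none of the 12 windows and in 6.02% of all windows. The SREBP-type motif TCACNCCAC was likewise in none of the 12 and in 1.05% of all. A missing match concerns only these letters in these windows.

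Values are given as normalised TPM, that is, TPM (transcript abundance scaled to a fixed sum) rounded by the authors and divided by 1 factor per sample. The sums over all rows ran from 747258 to 1076439 per mouse, and control replicate 8, with the lowest sum, stood below the next mouse at 849922. The read depth behind a value is unknown, so no counting interval is given. Hepatocyte markers were high in every group (10 of 11 listed, sums between 24110 and 48770 per mouse). In bulk liver, fewer cells of a type and less RNA per cell cannot be told apart.

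Scd1, the stearoyl-CoA desaturase, had the highest level of the genes by far. Its mean over all mice was 1429 normalised TPM, above 99.5% of the tested genes. Thrsp, the thyroid hormone responsive protein that supports fatty acid synthesis, followed with 328. Me1 (108), Fasn (102) and Srebf1 (92.8) had close levels, then Elovl6 (62.0) and Acly (50.0). The carboxylases were lowest, with 10.2 for Acaca and 7.34 for Acacb. Reads from the 3′ end do not grow with transcript length, and whether these TPM were divided by length was not given in the sources used here, so the order of levels between genes depends on a setting that is not known.

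Pnpla3, a lipid-droplet lipase and acyltransferase that is a known SREBP-1 target, was listed at 0 in 52 mice. It was above 0 only in 1 mouse at 15 mg (1.02) and 1 mouse at 150 mg (1.98). Its mean was under the minimum of 1 that a row needed for testing, and no comparison is made for it.

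**Figure D1:**
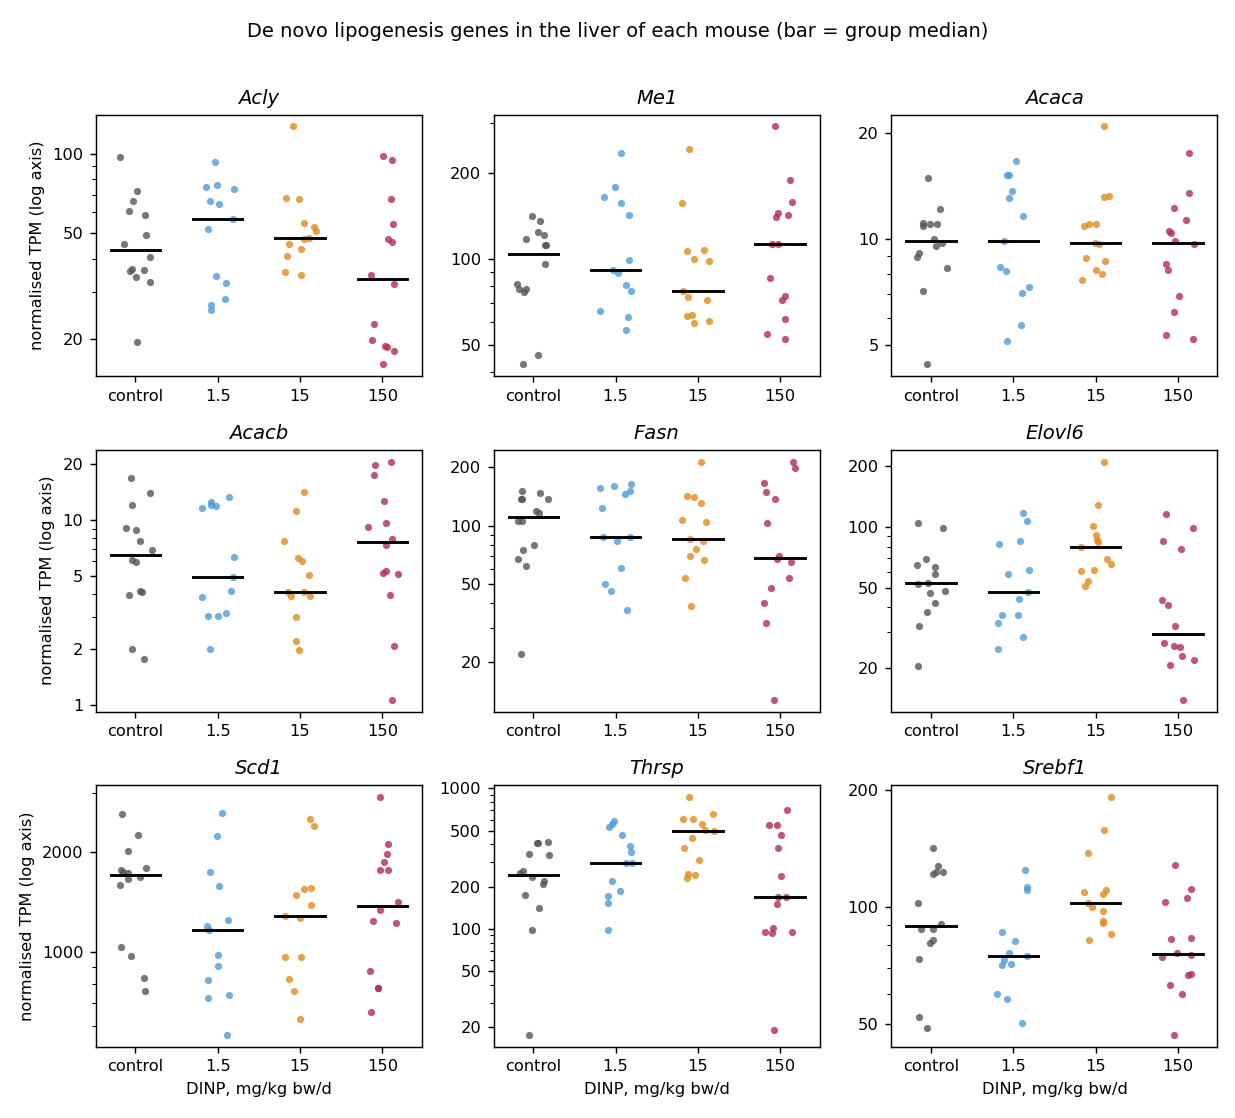
Normalised TPM on log axes (y) of 9 lipogenic genes in each of the 54 mice (points) by DINP dose (x), with the group median as a bar. Elovl6, Thrsp and Srebf1 sat higher at 15 mg than at 150 mg, and all groups overlapped.

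Whether DINP changed the pathway was asked by comparing each dose with the control group, using limma on log2(value + 1) with Benjamini-Hochberg adjustment over all 11431 rows. A gene was called where the adjusted p was under 0.05. No lipogenic gene was called at any dose. This was 0 of 9 at 1.5 mg, where 1.20% of all tested genes were called, 0 of 9 at 15 mg, where 14.2% were called, and 0 of 9 at 150 mg, where 2.17% were called. Without adjustment, p was under 0.05 for 0, 2 and 0 of the 9 genes, and rank-sum tests with the same adjustment called 0 at each dose, beside 1.09%, 5.94% and 2.55% of all. The median log2 fold change (log2FC) of the 9 genes was 0.00, 0.11 and -0.16 at the 3 doses in order, beside 0.00, 0.00 and -0.01 over all tested genes.

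Neither gene that supplies the pathway passed the test, and their groups overlapped widely. Acly ranged from 19.4 to 97.2 (median 43.1) in the control group, from 25.7 to 93.0 (median 56.7) at 1.5 mg, from 34.8 to 127 (median 47.9) at 15 mg and from 16.0 to 98.2 (median 33.5) at 150 mg. Its log2FC against control at the highest dose was -0.37 ± 0.24 (SE), with a 95% interval from -0.86 to 0.12 (adjusted p = 0.523). Me1 ran from 42.6 to 141 (median 104) in controls, 56.3 to 236 (median 91.2) at 1.5, 59.7 to 243 (median 77.3) at 15 and 52.3 to 292 (median 113) at 150 mg. The highest mice of the treated groups lay above all controls for Me1, while the bulk of the values overlapped, and the log2FC at 150 mg was 0.22 ± 0.23 (adjusted p = 0.736).

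Of the carboxylases, Acaca was the steadiest. Its medians were 9.91, 9.92, 9.75 and 9.79 in the control, 1.5, 15 and 150 mg groups, with lowest values of 4.42, 5.15, 7.67 and 5.23 and highest values of 14.9, 16.8, 20.9 and 17.6. The 95% interval of its log2FC at 150 mg ran from -0.37 to 0.26. Acacb spread far more, from 1.77 to 16.8 (median 6.48) in controls, 2.02 to 13.4 (median 4.91) at 1.5, 1.99 to 14.3 (median 4.09) at 15 and 1.07 to 20.7 (median 7.59) at 150 mg. Its log2FC was -0.30 ± 0.31 at 15 mg and 0.18 ± 0.31 at 150 mg (adjusted p = 0.577 and 0.860).

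Fasn, on chromosome 11 (120805846 to 120824547, minus strand), carries out the synthesis itself. It had means of 104 ± 38.1 (SD, n = 14), 104 ± 47.7 (n = 13), 101 ± 46.7 (n = 13) and 96.7 ± 64.3 (n = 14) in the order of dose. The values ran from 22.1 to 150.5 (median 111) in controls and from 37.1 to 164.5 (median 87.6) at 1.5 mg. They ran from 38.8 to 213 (median 85.7) at 15 mg and from 12.8 to 212 (median 68.5) at 150 mg. The group at the highest dose held 1 mouse below and 3 mice above every control. The log2FC was -0.04, -0.05 and -0.33 (SE 0.31 each, adjusted p = 0.979, 0.944 and 0.687), and the interval at 150 mg ran from -0.94 to 0.29.

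Scd1 ran from 765 to 2607 (median 1706) in controls, 563 to 2619 (median 1164) at 1.5, 628 to 2519 (median 1283) at 15 and 661 to 2925 (median 1378) at 150 mg. The groups overlapped, and the control median was exceeded in 3 of 13, 2 of 13 and 6 of 14 treated mice. The log2FC was -0.39 ± 0.23, -0.27 ± 0.23 and -0.16 ± 0.22, and none passed the test (adjusted p = 0.491, 0.469 and 0.823).

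The lengthening enzyme, the Thrsp gene and Srebf1 had their highest means at 15 mg, as had Acaca (10.9) and Acly (55.15). Elovl6 ranged from 20.3 to 105 (median 52.5) in the control group, from 24.7 to 117 (median 47.4) at 1.5, from 51.0 to 211 (median 79.4) at 15 and from 13.9 to 116 (median 29.4) at 150 mg. At 15 mg, 12 of 13 mice were above the control median, and 6 of 14 controls were below every mouse of that group. The log2FC of 0.63 ± 0.27 did not pass the test after adjustment (adjusted p = 0.113), nor did the value of -0.46 ± 0.26 at 150 mg (adjusted p = 0.441).

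Thrsp, a short gene on chromosome 7 (97412938 to 97417730, minus strand), ranged from 17.7 to 417 (median 242) in controls, from 97.8 to 583 (median 293) at 1.5, from 231 to 868 (median 493) at 15 and from 19.2 to 698 (median 169) at 150 mg. At 15 mg, 8 of 13 mice were above every control, and the group mean was 473 ± 191 (SD, n = 13) against 251 ± 121 (n = 14). The log2FC of 1.08 ± 0.39 lay at the edge of the threshold (adjusted p = 0.0546). It fell under 0.05 when any 1 of 10 mice was left out (adjusted p down to 0.0315, without replicate 7 at 150 mg), and the adjusted p was 0.0329 with the replicate number as a block.

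Srebf1 ranged from 48.9 to 142 (median 89.4) in controls, 50.4 to 125 (median 74.8) at 1.5, 82.6 to 192 (median 103) at 15 and 47.0 to 128 (median 75.9) at 150 mg. At 15 mg, 11 of 13 mice lay above the control median, and the ranges of all groups overlapped. Against control, the log2FC was -0.23, 0.25 and -0.21 (SE 0.15 each), with no call (adjusted p = 0.568, 0.285 and 0.547). Srebf1 lies on chromosome 11 (60199089 to 60222581, minus strand, GRCm38) and overlaps Rai1 on the other strand. The strand setting of the counting was not given in the sources used here, and 3′ reads do not tell the SREBP-1a and SREBP-1c transcripts apart.

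**Figure D2:**
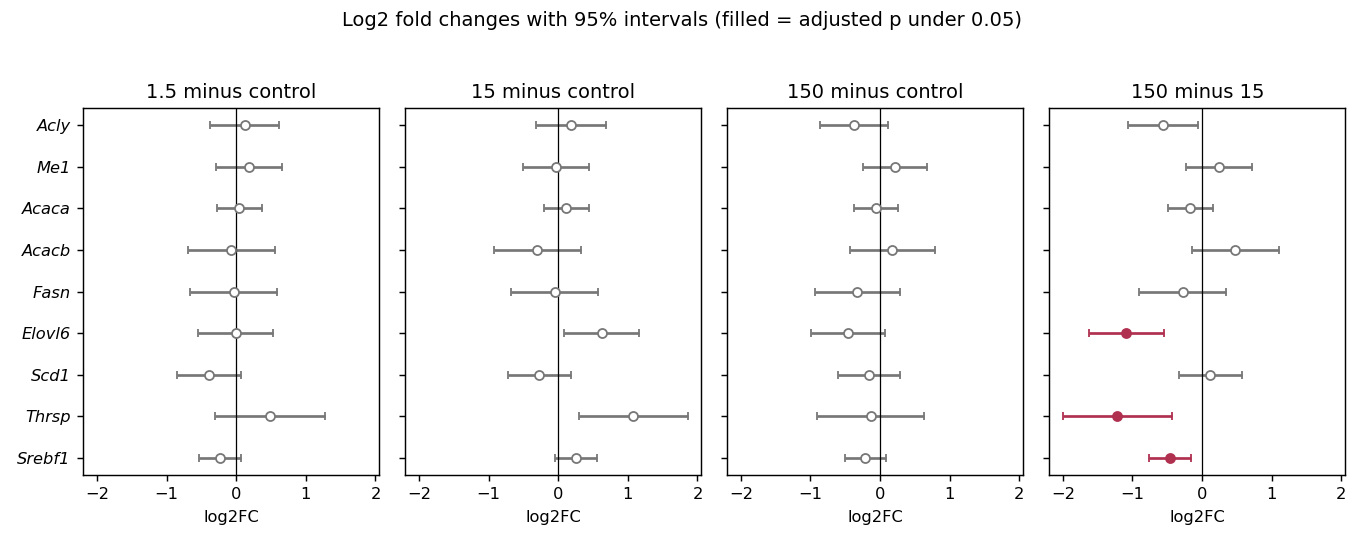
Log2 fold change (x) of each of 9 lipogenic genes (y) with its 95% interval, for the 3 doses against control and for 150 against 15 mg, in 4 panels. Filled points have an adjusted p under 0.05, which held for Elovl6, Thrsp and Srebf1 in the last panel and for no gene in the others.

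The doses were then compared with each other in the same fit. Elovl6, Thrsp and Srebf1 were lower at 150 than at 15 mg, 3 of 9 called beside 20.0% of all tested genes, and none was called higher. That share is not far from the background, so the count says little about the pathway as such. The median log2FC over the 9 genes was -0.28, beside -0.01 over all tested genes.

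Elovl6, on chromosome 3 (129532355 to 129638495, plus strand, GRCm38), had the smallest adjusted p, with a log2FC of -1.09 ± 0.27 (SE, 95% interval -1.63 to -0.55, adjusted p = 0.00254). At 150 mg, 10 of 14 mice lay below every mouse at 15 mg, while the other 4, replicates 6, 8, 10 and 12, lay between 77.6 and 116. Thrsp followed with -1.21 ± 0.39 (adjusted p = 0.0212), and 8 of 14 mice at 150 mg were below all 13 mice at 15 mg. The 4 highest Thrsp values at 150 mg, 468 to 698, belonged to the same 4 mice. Srebf1 differed by -0.46 ± 0.15 (adjusted p = 0.0218), with 8 of 14 mice below the whole range at 15 mg.

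The calls of Thrsp and Srebf1 depended on single mice. Without replicate 7 at 150 mg, the mouse with the lowest Thrsp value of its group, the log2FC of Thrsp was -0.97 (adjusted p = 0.0511). Without replicate 8 at 15 mg, the mouse with the highest Srebf1 value, that of Srebf1 was -0.40 (adjusted p = 0.0564). Rank-sum tests gave an adjusted p of 0.0574 for Elovl6, 0.0623 for Srebf1 and 0.0845 for Thrsp, so that 0 of the 9 genes was called by them, beside 10.9% of all, where limma called 3. Acly differed by -0.56 ± 0.25 and did not pass after adjustment (adjusted p = 0.107).

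Like Acly, Fasn and Acaca had negative values between 150 and 15 mg that were not called, a log2FC of -0.28 ± 0.31 for Fasn and of -0.17 ± 0.16 for Acaca (adjusted p = 0.580 and 0.502). The values of the remaining genes were positive and not called either, 0.48 ± 0.31 for Acacb, 0.25 ± 0.24 for Me1 and 0.12 ± 0.23 for Scd1 (adjusted p = 0.299, 0.503 and 0.764).

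Between 15 and 1.5 mg, 1 of 9 genes was called, beside 21.4% of all tested genes, a share below the background. This was Srebf1, higher by 0.48 ± 0.15 (adjusted p = 0.0197), with 13 of 13 mice at 15 mg above the median at 1.5 mg. With array quality weights its adjusted p was 0.0508, and with rank-sum tests, which called 10.0% of all, 0.0621. Between 150 and 1.5 mg, 0 of 9 were called with limma and 0 by rank-sum tests, beside 4.61% and 4.12% of all, and 0 had an unadjusted p under 0.05. The moderated F test for any difference among the 4 groups called 3 of 9, beside 26.7% of all, namely Elovl6 (adjusted p = 0.0137), Srebf1 (adjusted p = 0.0342) and Thrsp (adjusted p = 0.0499). In this F test Elovl6 was called with each of the 54 mice left out in turn, while the call of Thrsp ended in 35 of these 54 fits.

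The lipogenic genes differed far more between mice of the same dose than most genes did. After removal of the group means, the SD on the log2 scale was 0.40 for Srebf1, 0.43 for Acaca, 0.61 for Scd1, 0.63 for Me1, 0.67 for Acly, 0.72 for Elovl6, 0.84 for Fasn and Acacb and 1.05 for Thrsp. The median over all tested genes was 0.32. Thrsp was more variable than 97.8% of the tested genes, and the least variable, Srebf1, more than 67.6%. The median SD of the 9 genes was 0.58 in controls, 0.66 at 1.5, 0.59 at 15 and 0.89 at 150 mg, beside 0.29, 0.29, 0.37 and 0.30 over all tested genes. Whether the spread differed between the doses was not tested.

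Within the highest dose, the widest span was that of Thrsp, where the highest mouse had 36.3 times the value of the lowest. The span was 16.5 times for Fasn and 19.4 times for Acacb, but 2.73 times for Srebf1. Much of this rested on replicate 7, without which the spans were 7.43 times for Thrsp, 6.66 for Fasn and 9.90 for Acacb, then the widest of these. In the control group Thrsp spanned 23.6 times, and 4.23 times without its lowest mouse. That mouse, control replicate 9, held the lowest value of the group for 7 of the 9 genes. At 150 mg replicate 7 was lowest for 7 of the 9, and at 15 mg replicate 1 was highest for 7 of the 9.

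**Figure D3:**
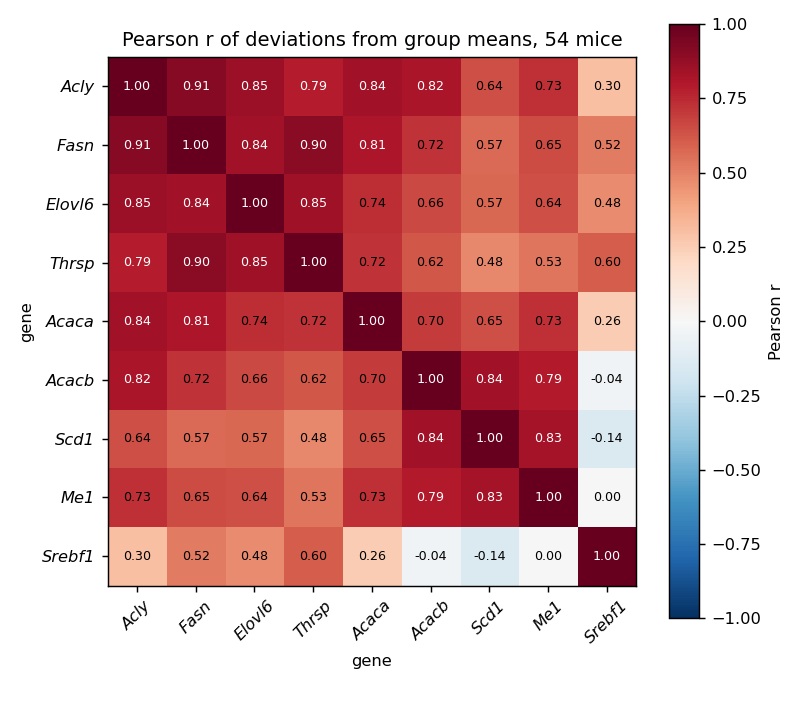
Pearson r between each pair of 9 lipogenic genes (both axes), over the deviations of 54 mice from the mean of their own dose group on the log2(value + 1) scale. Srebf1 stands apart from Acacb, Scd1 and Me1, with r between -0.14 and 0.00, while the 28 pairs without Srebf1 lie between 0.48 and 0.91.

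How far the genes moved together was measured over the 54 mice, each taken as its distance from the mean of its dose, for all 36 pairs of the 9 genes, with a 2-sided permutation test within groups (100000 permutations) and Benjamini-Hochberg adjustment over the 36 pairs. Each point is 1 mouse, and both values of a point come from the same library and its scaling. The median Pearson r was 0.68 and the median Spearman rho 0.64. An adjusted p under 0.05 was reached by 32 of 36 pairs, with Pearson's r and with Spearman's rho alike. The share of other gene pairs that would pass was not computed, so this count has no background beside it. Within single groups the median r was 0.74 in controls and 0.72, 0.56 and 0.75 at 1.5, 15 and 150 mg.

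Fasn and Acly, between whose steps the carboxylase acts, were the closest pair with a Pearson r of 0.91 and a Spearman rho of 0.94 (permutation p = 1e-05, the smallest that the permutations can give, adjusted p = 1.44e-05). Without the 2 mice farthest from the median of Fasn, r was 0.92, and within the groups it lay between 0.87 and 0.96. Fasn and Thrsp had an r of 0.90 and a rho of 0.86, with 0.86 left without the 2 farthest mice. In this pair r was 0.65 within the 15 mg group and 0.92 or more in the other groups. Elovl6 went with Acly (0.85), Thrsp (0.85) and Fasn (0.84).

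Acacb, Scd1 and Me1 were also close to each other. The r was 0.84 for Acacb with Scd1, 0.83 for Scd1 with Me1 and 0.79 for Acacb with Me1, with rho values of 0.84, 0.82 and 0.79. Between these genes and Fasn, Acly, Elovl6 and Thrsp, r ran from 0.48 for Scd1 with Thrsp (rho 0.43, adjusted p = 0.000418) to 0.82 for Acacb with Acly, so that the ranges overlapped. The difference between these correlations was not tested.

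Srebf1 did not move with the whole pathway. It had a positive r with Thrsp (0.60), Fasn (0.52), Elovl6 (0.475) and Acly (0.30), the last with an adjusted p of 0.0365. With Acaca (0.26), Me1 (0.00), Acacb (-0.04) and Scd1 (-0.14) the test was not passed (adjusted p = 0.0733, 0.981, 0.818 and 0.333). Without the 2 mice farthest from the median of Fasn, the r of Fasn with Srebf1 fell to 0.40. The transcript level of Srebf1 does not measure the processed SREBP-1 protein, which is what acts in the nucleus.

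**Figure D4:**
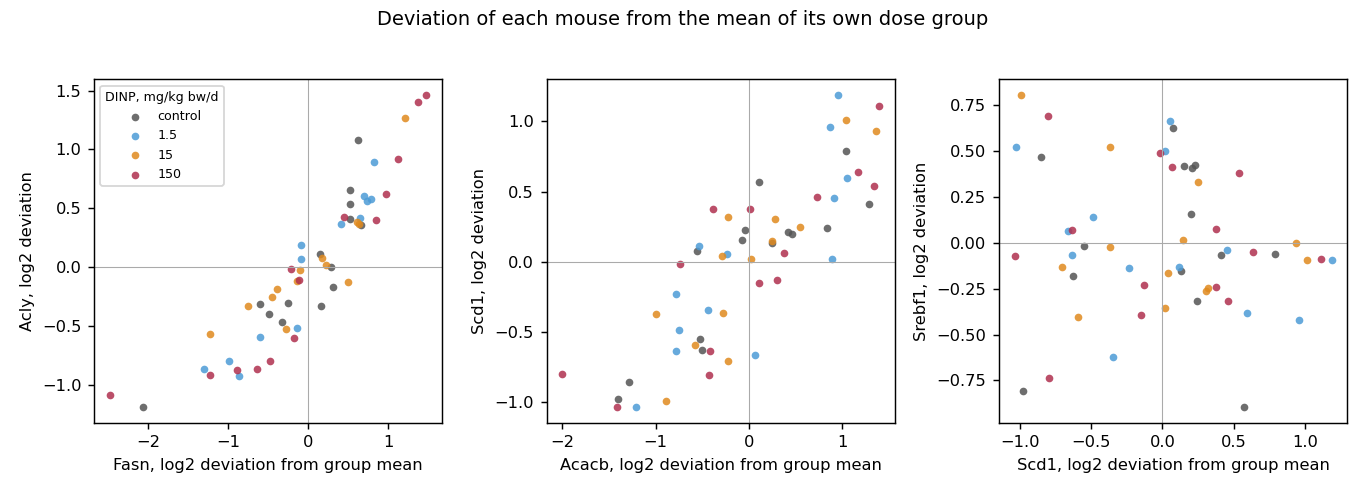
Deviation of each mouse from its own group mean on the log2 scale for Acly against Fasn, Scd1 against Acacb and Srebf1 against Scd1 (54 points a panel, coloured by dose). The first 2 panels rise along a line, with r of 0.91 and 0.84, while the third shows no trend, with r of -0.14.

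The genes that were most like the 9 across mice, by the r of their deviations with the mean standardized deviation of the 9 over 54 mice, included genes of neighbouring pathways. They are a description, with no test. The closest was Gpam (r = 0.88), which starts triglyceride synthesis, followed by Pklr (0.83), the liver pyruvate kinase, and Sc5d (0.82), a sterol desaturase. Then came Rdh11 (0.81), a retinol dehydrogenase, Acat2 (0.80) of cytosolic acetoacetyl-CoA synthesis, Gm10642 (0.79), Acss2 (0.79), the cytosolic acetyl-CoA synthetase, Chrna4 (0.77) and Dhcr7 (0.76) of cholesterol synthesis. Gm10642 and Chrna4 had group means of at most 1.68 and 1.95, close to the minimum for testing. Of these genes, Pklr alone was called between 150 and 15 mg (log2FC -0.54, adjusted p = 0.0128).

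Wider lists around the pathway were read against the same backgrounds, with calls by limma. Of 18 tested regulators of lipogenesis, 4 rose and 2 fell between 15 and 150 mg, beside 20.0% of all genes called. Against control, 1 was higher and 3 were lower at 15 mg, beside 14.2% of all. At 150 mg against control 0 were called, beside 2.17% of all. Rxra, the partner receptor of LXR and PPAR, fell from 34.5 to 23.6 (log2FC -0.53, adjusted p = 1.49e-06). Its control mean was 25.3, and against control it was called at 15 mg (0.43, adjusted p = 8.11e-05) and not at 150 mg (-0.10, adjusted p = 0.612). Usf2, an E-box factor, rose from 67.3 at 15 mg to 85.8 at 150 mg (0.41, adjusted p = 0.0156). Srebf2, the regulator of cholesterol synthesis, rose from 2.44 to 3.53 (0.43, adjusted p = 0.0453). The control means of Usf2 and Srebf2 were 96.0 and 3.56. Against control, both were called lower at 15 mg (-0.57, adjusted p = 0.0012, and -0.45, adjusted p = 0.0452). Neither was called at 150 mg against control. Nr1h2, which codes for LXRβ, was higher at 150 than at 15 mg as well (0.28, adjusted p = 0.0323), and was called at no dose against control.

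Between 15 and 150 mg, 20.0% of all tested genes were called, and list counts near that share say little about a pathway as such. In the supply of acetyl-CoA, citrate and NADPH, 5 of 21 tested genes rose from 15 to 150 mg and 3 fell, among them Mdh1, the cytosolic malate dehydrogenase (-0.44, adjusted p = 1.15e-05). Against control, Mdh1 was higher at 15 mg (0.40, adjusted p = 8.49e-05) and was not called at 150 mg (-0.04, adjusted p = 0.870). Among 17 further elongation and desaturation genes 1 was called, Elovl3, which makes very long chains. Its level of 32.4 at 15 and 75.9 at 150 mg gave a log2FC of 1.31 ± 0.27 (adjusted p = 0.000358), opposite in sign to that of Elovl6. With a control mean of 51.3, Elovl3 was not called against control at 15 or 150 mg (adjusted p = 0.0727 and 0.272). Of 10 genes around the carboxylases, 3 were lower, among them Prkaa2 (-0.39, adjusted p = 0.00360) and Prkab1 (-0.36, adjusted p = 0.00191), subunits of the AMP-activated kinase. The third was Mid1ip1 (-0.46, adjusted p = 0.0472), a relative of Thrsp that was singled out after its values were seen. Against control, Prkaa2 was higher at 15 mg (0.37, adjusted p = 0.00816) and was not called at 150 mg (-0.02, adjusted p = 0.963). Prkab1 and Mid1ip1 were called at no dose against control.

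Of 13 tested triglyceride synthesis genes, 4 rose and 1 fell from 15 to 150 mg, beside 20.0% of all tested genes called. Lpin1, a phosphatidate phosphatase, was lower (-0.77, adjusted p = 0.00119), and its relative Lpin2 was higher (0.45, adjusted p = 0.0453). Against control, Lpin2 was higher at 15 mg (0.50, adjusted p = 0.0309) and at 150 mg (0.95, adjusted p = 0.000132), and Lpin1 was called at no dose. Of 22 cholesterol synthesis genes 2 were higher and 1 lower, beside the same 20.0% of all. Among these were Hmgcs1 at 0.56 (adjusted p = 0.0308) and Lss at -0.52 (adjusted p = 0.0174). Against control, Lss was higher at 15 mg (0.46, adjusted p = 0.0448) and was not called at 150 mg (-0.05, adjusted p = 0.926). Hmgcs1 was called at no dose against control. Of 13 tested genes of glucose handling and known ChREBP targets, 5 were lower and 1 higher, beside the same 20.0% of all. Tkfc, the triokinase, fell by 0.57 on the log2 scale (adjusted p = 6.14e-05). Txnip, a glucose-responsive gene, was the 1 that rose (1.00, adjusted p = 1.74e-05). Both genes were called at 150 mg against control, Tkfc at -0.40 (adjusted p = 0.0189) and Txnip at 1.06 (adjusted p = 2.42e-05). Neither was called at 15 mg against control (adjusted p = 0.296 and 0.864).

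Rank-sum tests between 150 and 15 mg gave fewer calls in most of these lists, and called 10.9% of all genes where limma called 20.0%. They called 1 of the 18 regulators, where limma called 6, and 0 of the 22 cholesterol synthesis genes, where limma called 3. The counts were 5 against 8 for acetyl-CoA, citrate and NADPH supply, 2 against 3 around the carboxylases, 4 against 5 in triglyceride synthesis and 5 against 6 in glucose handling, and 1 in both tests for elongation and desaturation.

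Other lists were read beside the lipogenic genes, and their part in the differences of the lipogenic genes was not tested. Of 15 tested clock genes, 4 were higher at 15 mg than in controls, where 14.2% of all genes were called. Another 3 calls were lower values at 150 than at 15 mg, where 20.0% of all genes were called, so this count was at the background. Rank-sum tests called 2 and 6 clock genes in these comparisons, beside 5.94% and 10.9% of all. Per3, a circadian repressor, had means of 4.18 in controls, 7.32 at 15 and 3.96 at 150 mg. The other clock genes called at 15 mg had means at 150 mg above those of controls. In the same order these were 7.14, 9.98 and 7.87 for Nr1d2, 54.2, 90.4 and 63.6 for Dbp, and 25.8, 50.2 and 30.3 for Usp2. Of 13 PPARα targets, 10 were higher at 150 mg than in controls, where 2.17% of all were called, with Ehhadh, a peroxisomal β-oxidation enzyme, at 15.8 and 47.5 (log2FC 1.54, adjusted p = 1.13e-13). Of 15 tested genes of insulin and feeding, 3 rose and 1 fell between 15 and 150 mg, beside 20.0% of all genes called. Among those that rose were the fasting-induced Pdk4 (0.97, adjusted p = 0.00404) and Angptl4 (0.92, adjusted p = 5.59e-05). At 150 mg against control Angptl4 was called (1.47, adjusted p = 9.84e-09) and Pdk4 was not (0.72, adjusted p = 0.122).

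Fat cells also make fatty acids, and so adipocyte markers were read in the same mice. Of 12 listed markers 11 were in the table and 7 were tested. Their summed level lay between 1158 and 3772 at 15 and between 2372 and 3915 at 150 mg, nearly all of it Car3, which hepatocytes express as well. Of the 7, Cfd (2.42, adjusted p = 8.41e-05) and Adrb3 (0.61, adjusted p = 0.00898) were higher at 150 than at 15 mg, beside 20.0% of all tested genes called. Adrb3 had means of 1.23 and 2.36 at 15 and 150 mg, close to the minimum for testing. Fabp4 went the other way and was not called (-0.42, adjusted p = 0.247). Adipoq, Plin1 and Lep were at or near 0, with Adipoq at a median of 0 in each group and at most 3.13 in a mouse, and Plin1 and Lep above 0 in 3 and 1 of the 54 mice. Other markers of the list were present. Fabp4 and Lpl were above 0 in every mouse, with highest values of 55.4 and 69.6, and Cidea and Cidec reached 64.2 and 49.6. Of the markers of other cells, limma called 2 of 7 endothelial, 1 of 3 tested cholangiocyte and 2 of 10 hepatocyte genes between 150 and 15 mg, where rank-sum tests called 0, 0 and 2. Over all tested genes limma called 20.0% and rank-sum tests 10.9%. Of 26 tested macrophage, stellate, lymphoid, blood and pancreatic markers limma called 0, with an unadjusted p under 0.05 for 4, and rank-sum tests called 0.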

How the data were processed

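The authors sequenced liver RNA from its 3′ ends (QuantSeq) and processed the reads with nf-core/rnaseq, for which the submitters' notes name STAR, RSEM and Salmon on GRCm38. The deposited values were found to be whole-number TPM divided by 1 factor per sample, a signal of steps between 0.765 and 1.11 that holds no read counts, so the depth is unknown and no count test was run. Values were taken to log2(value + 1), and rows with a mean of at least 1 were kept. All 54 mice entered 1 limma fit (3.58.1, R 4.3.3, trended variance), and p-values were adjusted over all 11431 rows. Permutation tests used numpy 2.4.6 on 36 pairs of genes, Pnpla3 left out as not tested. The fit was tested on simulated data.

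Groups came from the labels. All lipogenic genes were named, and from each other list up to 4 called genes with the smallest adjusted p over all comparisons, or 2 of the highest mean where none was called, with the 10 genes most like the lipogenic ones; 2 genes named by these rules are not reported here. The genes and lists were chosen with earlier results of these data known. Fold changes on this scale understate those of low genes, and p-values measure the spread between the mice deposited. Alternatives were other pseudocounts, filters, scalings, weights, a replicate block, rank tests, pairs of groups alone and each mouse left out.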

Additional observations from a re-analysis of the deposited data

Results flagged for a closer look

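For 3 genes, the effects of 2 doses differed by the direct test of their difference (limma, adjusted p by Benjamini-Hochberg over 11431 rows). Elovl6 had a log2FC against control of 0.63 at 15 mg and -0.46 at 150 mg, a difference of -1.09 ± 0.27 (adjusted p = 0.00254). Thrsp had 1.08 and -0.14, a difference of -1.21 ± 0.39 (adjusted p = 0.0212). Srebf1 had 0.25 and -0.21, a difference of -0.46 ± 0.15 (adjusted p = 0.0218). Srebf1 also differed between 15 and 1.5 mg, by 0.48 ± 0.15 (adjusted p = 0.0197), from an effect of -0.23 at the lower dose. The effects share the same control mice, and the groups at 15 and 150 mg differed in 20.0% of all tested genes.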

How the results depend on the processing

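Elovl6 was lower at 150 than at 15 mg in all 11 other settings and with each mouse left out. The call ended only with rank tests, where 0 of the 9 genes was called between these groups and 1 (Elovl6) in the test over the 4 groups. The test over the 4 groups also called 1 with no filter on low values, 2 (without Thrsp) with a pseudocount of 0.1, quantile normalization, array quality weights or robust variance estimation, and between 1 and 3 with 1 mouse left out, the lowest count without replicate 6, 8 or 9 at 15 mg. Srebf1 between 15 and 1.5 mg was lost with array quality weights and with rank tests, which left 0 calls. Thrsp at 15 mg against control was called, as 1 of 9, with a minimum mean of 5, with the 2 groups alone, and in the leave-one-out fits in 10 of 54 cases (counts between 0 and 1, without control replicates 3, 4, 10 or 14, replicates 4, 7 or 11 at 15 mg, or replicates 6, 7 or 10 at 150 mg). Acly between 150 and 15 mg was called without replicate 6 or replicate 12 at 150 mg (adjusted p = 0.0433 and 0.0470). The cause was not tested.

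With the replicate number as a block, 1 gene (Thrsp) was called at 15 mg against control, and 1 and 3 genes between 15 and 1.5 mg and between 150 and 15 mg, as without it. The numbers did not pair the mice: over 79 pairs of same-numbered mice the mean correlation of deviations was -0.00, from -0.36 to 0.24, and it was over 0.1 in 12.7%.

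Of values that no fit called, Fasn changed sign under the block (0.023 at 1.5 mg and 0.008 at 15 mg) and with 1 mouse left out (from -0.193 to 0.074 and from -0.208 to 0.052), Thrsp at 150 mg ran from -0.40 to 0.11, the ends without control replicate 9 and without replicate 7 at 150 mg, and Acaca between 150 and 15 mg was 0.005 as a difference of medians. The median r between the genes was 0.56 within the 15 mg group and between 0.63 and 0.75 in the other settings, and the median SD was between 0.61 and 0.68.

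The share of all genes called moved with the filter, the test and the weights. Between 150 and 15 mg it was 9.69% with no filter and 30.4% with a minimum mean of 5, and between 15 mg and control 5.94% by rank tests and 22.7% with a minimum mean of 5. With each sample set to the same sum, 23.6% instead of 68.5% of the genes called at 150 mg against control were higher, and 0 lipogenic genes were called there in either setting. Between 15 and 1.5 mg and between 150 and 15 mg, the same lipogenic genes, 1 and 3, were called in both settings. Depth is unknown, and low genes such as Pnpla3 could not be compared.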
